A study of Mus musculus with 24 samples.

Results

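The genes described here encode the machinery that copies DNA and the factors that bring a cell into S phase. They were taken by name from a list of 49 symbols and not by a rule on measured values. Earlier results of these data were known when the list was chosen. All 49 were found among the 20351 protein-coding genes of the deposited count table, and all 49 were among the 14411 genes high enough to be tested.

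Poly(A) RNA was sequenced from HL-1 cells in 24 libraries, 6 in each of 4 groups. HL-1 is a dividing mouse cell line that descends from an atrial tumour driven by the simian virus large T antigen, so all groups are 1 line in culture and not heart tissue. Control cells carried an adenovirus with a scrambled short hairpin RNA, and knockdown cells an adenovirus with a hairpin against MuRF1, a muscle ubiquitin ligase encoded by Trim63. Both viruses were given at 30 infectious units per cell (MOI), and 48 h later the cells were either kept still or stretched for 60 min at 1 Hz, by 15%. The labels name the stretch uniaxial in one field and biaxial in another. The medium was serum-free after the growth phase. The question set by the design was what MuRF1 does in the response of these cells to stretch. Whether replicates were separate cultures is not stated, so that p-values speak only of the spread among these libraries, part of which may be technical.

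Before S phase, the origin recognition complex (Orc genes), Cdc6 and Cdt1 load the Mcm2 to Mcm7 helicase ring onto DNA, a step called licensing. At the start of S phase, cyclin E with its kinase and Cdc7 switch the ring on by recruiting Cdc45 and the GINS complex, after which polymerases, the sliding clamp and its loaders, and enzymes that supply nucleotides carry out synthesis. E2F factors, held back by RB proteins, drive the transcription of many of these genes, with E2f1 to E2f3 known mainly as activators and E2f7 and E2f8 as repressors. Adult cardiomyocytes in the heart have largely left this programme, whereas HL-1 cells go on dividing.

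RefSeq promoters on GRCm38.p6, from 250 bases before to 50 bases after the annotated start, were matched by symbol to 40 of the 49 genes, with 48 promoters because some genes have several. Each was searched on both strands for the E2F motif spelled TTTCGCGC, TTTGGCGC, TTTCCCGC or TTTGCCGC. It was present in 18 of the 48 promoters, 37.5%, and in 2.26% of all 32851 promoters of the same length. The letters lay in 9 of the 15 matched genes that fell with knockdown without stretch, in 4 of the 10 that rose, and in 5 of the 15 that did not pass the test. The sequences below are from genes on which the results turn, with the motif in capitals; they run 5′ to 3′ on the strand of the gene. The Mcm6 promoter is given from 250 bases before its start up to the start, because it holds 3 matches, 2 of which overlap.
Mcm6, chr1:128359706-128359955, minus strand: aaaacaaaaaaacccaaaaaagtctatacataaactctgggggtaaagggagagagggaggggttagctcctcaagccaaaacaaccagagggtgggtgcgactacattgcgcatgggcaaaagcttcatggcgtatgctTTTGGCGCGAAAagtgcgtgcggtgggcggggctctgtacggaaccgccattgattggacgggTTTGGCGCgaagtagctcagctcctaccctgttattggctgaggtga

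Shorter stretches are given for 3 further helicase subunits and for Uhrf1 and Pold1, which also fell with knockdown. The 60-base stretches lie before the start and the 30-base stretches after it.
Mcm3, chr1:20820275-20820304, minus strand: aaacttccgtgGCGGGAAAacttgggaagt
Mcm5, chr8:75109330-75109389, plus strand: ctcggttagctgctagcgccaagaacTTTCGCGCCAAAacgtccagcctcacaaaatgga
Mcm7, chr5:138172015-138172074, minus strand: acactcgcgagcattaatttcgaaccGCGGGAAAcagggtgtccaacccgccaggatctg
Uhrf1, chr17:56304102-56304161, plus strand: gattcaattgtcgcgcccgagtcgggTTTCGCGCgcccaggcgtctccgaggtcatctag
Pold1, chr7:44548766-44548795, minus strand: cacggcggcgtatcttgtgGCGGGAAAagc

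The same motif letters lie in genes that rose with knockdown (E2f2, E2f3, E2f7 and Clspn) or rose with stretch in knockdown cells (Dtl, Cdc6 and Clspn).
E2f2, chr4:136172294-136172323, plus strand: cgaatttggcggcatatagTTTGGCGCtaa
E2f3, chr13:29986064-29986123, minus strand: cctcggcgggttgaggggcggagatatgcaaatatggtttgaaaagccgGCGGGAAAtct
E2f7, chr10:110745215-110745274, plus strand: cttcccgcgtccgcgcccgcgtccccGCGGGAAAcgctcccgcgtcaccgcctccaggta
Clspn, chr4:126556990-126557019, plus strand: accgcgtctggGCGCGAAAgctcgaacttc
Dtl, chr1:191575545-191575604, minus strand: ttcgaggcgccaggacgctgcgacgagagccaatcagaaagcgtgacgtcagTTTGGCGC
Cdc6, chr11:98907987-98908046, plus strand: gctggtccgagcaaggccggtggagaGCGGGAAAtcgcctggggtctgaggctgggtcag

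The matches before the start lay 8 bases before it in Dtl, 11 in E2f3, 138 in Cdc6, 165 in Mcm7, 185 in Uhrf1 and 198 in E2f7. In Mcm5 they lay 153 and 149 bases before it, and in Mcm6 110, 106 and 47. Matches after the start began at bases 20 and 39 in Mcm3, 17 in Mcm7, 22 in Clspn, and 40 in both E2f2 and Pold1. E2f2, E2f3, Mcm7 and Uhrf1 have several promoters, with the E2F letters in a single promoter of each. For Uhrf1 that promoter starts inside the gene, and the one over the gene start (56303087 to 56303386) holds no E2F letters. Of other motifs searched on both strands, the CHR element (TTTGAA or TTCGAA) was in 22.9% of the 48 promoters and 19.2% of all promoters, the CCAAT box (CCAAT) in 60.4% and 37.4%, and the GC box (GGGCGG) in 75.0% and 35.7%. Some of these letters overlap, such as E2F matches on opposite strands in Mcm5 and Mcm6. Promoters of Rrm2, Mcm10, Ccne1 and Tk1 were in the table without the E2F letters in this window. Each match is a description of the letters and was not tied to binding here.

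Library depth was 23.6 to 54.8 M estimated counts, and the library second from the bottom held 37.7 M. The shallowest, stretched control replicate 5, stood apart on the second principal component at 54.7 against -14.9 to 13.2 in the others, and non-stretched knockdown replicate 4 stood apart on the fourth at -25.7 against -9.96 to 11.1. Trim63 lies on chromosome 4 at 134315120 to 134329629 of GRCm38. Its median level was 641 CPM (counts scaled to library size with TMM factors) in non-stretched and 783 CPM in stretched control cells, and 55.7 and 67.1 CPM in the matching knockdown cells, with no overlap between control and knockdown libraries. Atrial cardiomyocyte markers were present (Tnnt2 at 480 to 1380 CPM, Gata4 at 225 to 373 CPM), but Nppa reached only 0.858 CPM and Myh6 6.95 CPM in any library. Markers of ventricular, endothelial, and macrophage and leukocyte cells summed to at most 4.97, 10.2 and 4.08 CPM in any library. Among fibroblast markers, Col1a1 (48.1 to 150 CPM) and Col3a1 (23.2 to 92.2 CPM) were present, while Col1a2, Tcf21 and Lum stayed at or under 0.486 CPM. Among smooth muscle markers Acta2 was high (1460 to 2520 CPM), while Myh11 stayed at or under 1.1 CPM.

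The members were well measured. The lowest rounded count of any of the 49 genes in any library was 453, and the median coefficient of variation within a group was 3.47%. Ccne2 in non-stretched knockdown cells was the most variable, with a coefficient of variation of 19.6%. Levels are in CPM, which is not divided by transcript length.

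With knockdown of MuRF1 some replication genes were lower and others higher, as was so over all tested genes, of which 57.8% changed without stretch. The Mcm2 to Mcm7 helicase, the GINS subunits Gins1 and Gins2, the leading and lagging strand polymerase subunits Pole and Pold1, and the nucleotide enzymes Rrm2 and Tk1 were lower in knockdown cells, while cyclin E (Ccne1, Ccne2), the E2F genes E2f2, E2f3 and E2f7, and Mcm10 were higher. Without stretch, 22 of the 49 genes fell and 11 rose by edgeR's quasi-likelihood test at an adjusted p under 0.05. Across all tested genes 29.7% fell and 28.0% rose. With stretch, 20 fell and 15 rose, where 26.9% and 25.1% of all tested genes did. The median log2 fold change of the 49 genes was -0.04 without stretch and -0.06 with stretch, against 0.01 and 0.00 over all genes. Most changes were small, since 1 gene of the 49 (Ccne2) changed by more than 0.42 on the log2 scale in the comparison without stretch.

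The comparisons without and with stretch use different libraries on both sides. In both, 19 genes fell (Chaf1a, E2f1, Gins1, Gins2, Lig1, Mcm2 to Mcm7, Pola1, Pold1, Pole, Prim2, Rfc2, Rrm2, Tk1 and Uhrf1) and 11 rose (Ccne1, Ccne2, Cdc7, Clspn, E2f2, E2f3, E2f7, Mcm10, Pola2, Rfc5 and Tyms). Cdt1, Gins4 and Pcna passed the test only without stretch, and Cdc6, E2f8, Fen1, Orc1 and Orc6 only with stretch. The 11 that passed in neither were Cdc45, Chaf1b, Dscc1, Dtl, Gins3, Prim1, Rfc1, Rfc3, Rfc4, Rrm1 and Slbp. Their 95% intervals, with those of the other genes that did not pass, lay between -0.16 and 0.21 on the log2 scale without stretch and between -0.18 and 0.18 with stretch. Whether a gene answered differently with and without stretch was tested by the interaction, given further on.

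**Figure D1:**
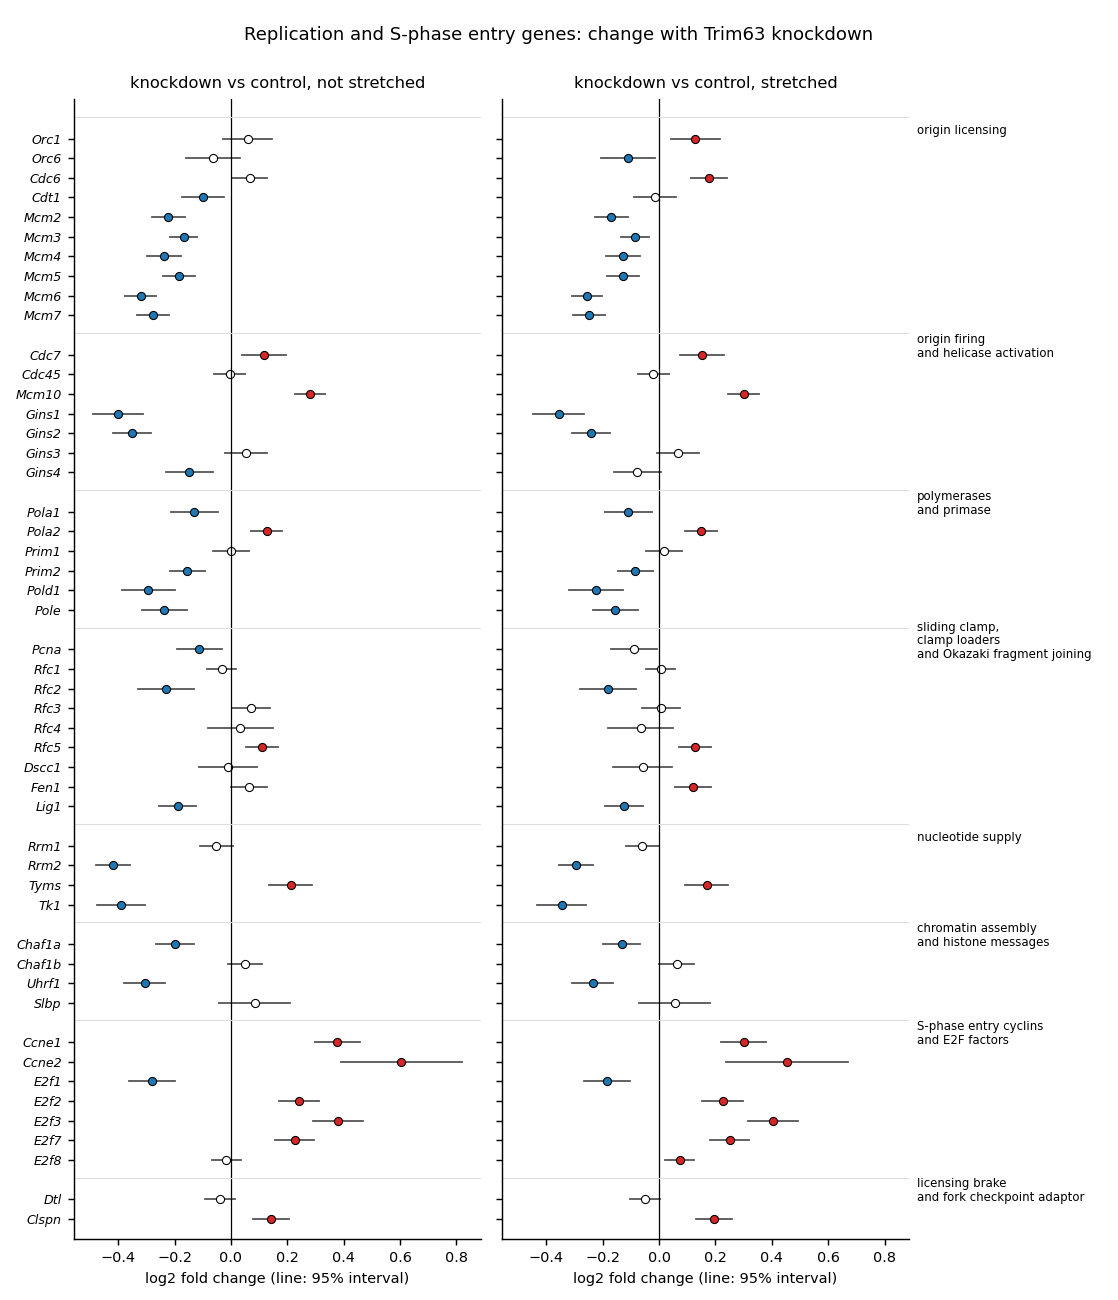
Log2 fold change of knockdown over control for each of the 49 genes, ordered by role, without stretch (left) and with stretch (right). Points are edgeR estimates, lines their 95% intervals, and filled points passed the test at an adjusted p under 0.05 (red higher, blue lower). Mcm2 to Mcm7 lie below 0 in both panels, and all cyclin E and E2F genes except E2f1 and, without stretch, E2f8 lie above 0.

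Several other gene groups moved with knockdown, and their part in these results was not tested. The summed level of 12 atrial cardiomyocyte markers was 2388 to 2683 CPM in non-stretched and 2250 to 2744 CPM in stretched control libraries, against 1184 to 1290 and 1319 to 1355 CPM in knockdown libraries. Of these 12 markers, 10 fell and 1 rose in each comparison. The sum of 8 fibroblast markers was 216 to 250 CPM in control and 79.9 to 101 CPM in knockdown libraries, and 5 of the 6 that could be tested fell. The sum of 5 smooth muscle markers was 2459 to 2833 CPM in control and 1696 to 1914 CPM in knockdown libraries. Most of that sum was Acta2, at 1460 to 2520 CPM over all libraries. Of the 5, 3 fell without stretch, and 3 fell and 1 rose with stretch. Ventricular markers summed to 1.32 to 2.41 CPM in control and 3.87 to 4.97 CPM in knockdown libraries, and both of those that could be tested rose. Macrophage and leukocyte markers summed to 1.61 to 2.14 CPM in non-stretched control and 2.28 to 2.88 CPM in non-stretched knockdown libraries, and to 2.23 to 3.76 and 3.01 to 4.08 CPM with stretch; 2 of the 3 that could be tested rose without stretch and 1 with stretch. All 6 libraries of a group also share a number in their library code that no other group has, and its meaning is not stated. If it marks a batch, batch and group cannot be told apart. In bulk RNA, fewer cells in S phase and less of a transcript per cell cannot be told apart either.

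Most origin licensing genes fell with knockdown. Of 10 licensing genes, 7 fell and none rose without stretch, and 7 fell and 2 rose with stretch. Over all tested genes 29.7% fell and 28.0% rose without stretch, and 26.9% and 25.1% with stretch. All 6 helicase subunits fell in both comparisons, though with upper-quartile scaling Mcm3 with stretch was at -0.03 (edgeR adjusted p = 0.322) and did not pass. Within libraries coded b, Mcm3 and Mcm4 with stretch were at -0.09 and -0.10 (edgeR adjusted p = 0.109 and 0.107) and did not pass. The summed level of the 6 subunits was 2226 ± 49.7 CPM in non-stretched and 2237 ± 47.1 CPM in stretched control cells. In the knockdown cells it was 1878 ± 50.9 and 1970 ± 43.6 CPM (SD, n = 6 each). The median log2 fold change of the 6 subunits was -0.23 without stretch and -0.15 with stretch.

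Mcm6, a subunit of the ring, lies on chromosome 1 at 128331590 to 128359664. In non-stretched cells it was at 583, 615 and 631 CPM (lowest, median and highest library) in controls and at 472, 492 and 502 CPM in knockdown. In stretched cells it was at 595, 614 and 637 CPM in controls and at 499, 517 and 528 CPM in knockdown. Every knockdown library lay below every control library. The log2 fold changes by edgeR were -0.32 (SE 0.026, adjusted p = 2.71e-11) without stretch and -0.26 (SE 0.026, adjusted p = 2.89e-09) with stretch.

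Mcm7, another subunit of the ring, lies on chromosome 5 at 138164583 to 138172422. Its levels were 361, 375 and 385 CPM in non-stretched controls and 298, 305 and 323 CPM in the matching knockdown cells. With stretch they were 362, 378 and 388 CPM against 305, 318 and 332 CPM, again with no overlap. The log2 fold changes were -0.28 (SE 0.027, edgeR adjusted p = 9.80e-10) and -0.25 (SE 0.027, edgeR adjusted p = 1.04e-08). The other 4 subunits fell by 0.17 (Mcm3) to 0.24 (Mcm4) on the log2 scale without stretch and by 0.09 (Mcm3) to 0.17 (Mcm2) with stretch. Their knockdown libraries lay below all control libraries in both settings, except that 1 value of Mcm4 overlapped with stretch (knockdown up to 167 CPM, control from 166 CPM).

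The factors that load the ring were mixed. Cdc6, the ATPase that brings the helicase to the origin recognition complex, was at a median of 61.8 CPM in non-stretched control and 65.0 CPM in non-stretched knockdown cells, a log2 fold change of 0.07 (SE 0.030, edgeR adjusted p = 0.0641) that did not pass. With stretch its libraries were at 59.6 to 64.1 CPM in controls and 67.9 to 74.9 CPM in knockdown, without overlap, and it rose by 0.18 (SE 0.030, edgeR adjusted p = 1.55e-05). Cdt1, the partner of Cdc6 in loading, fell by 0.10 without stretch and was at -0.01 with stretch. Orc1, the ATPase subunit of the origin complex, rose by 0.13 with stretch only, and Orc6 fell by 0.11 with stretch at an edgeR adjusted p of 0.0445. The Orc6 call was lost with DESeq2 (adjusted p = 0.0510) and in several of the fits without 1 library.

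**Figure D2:**
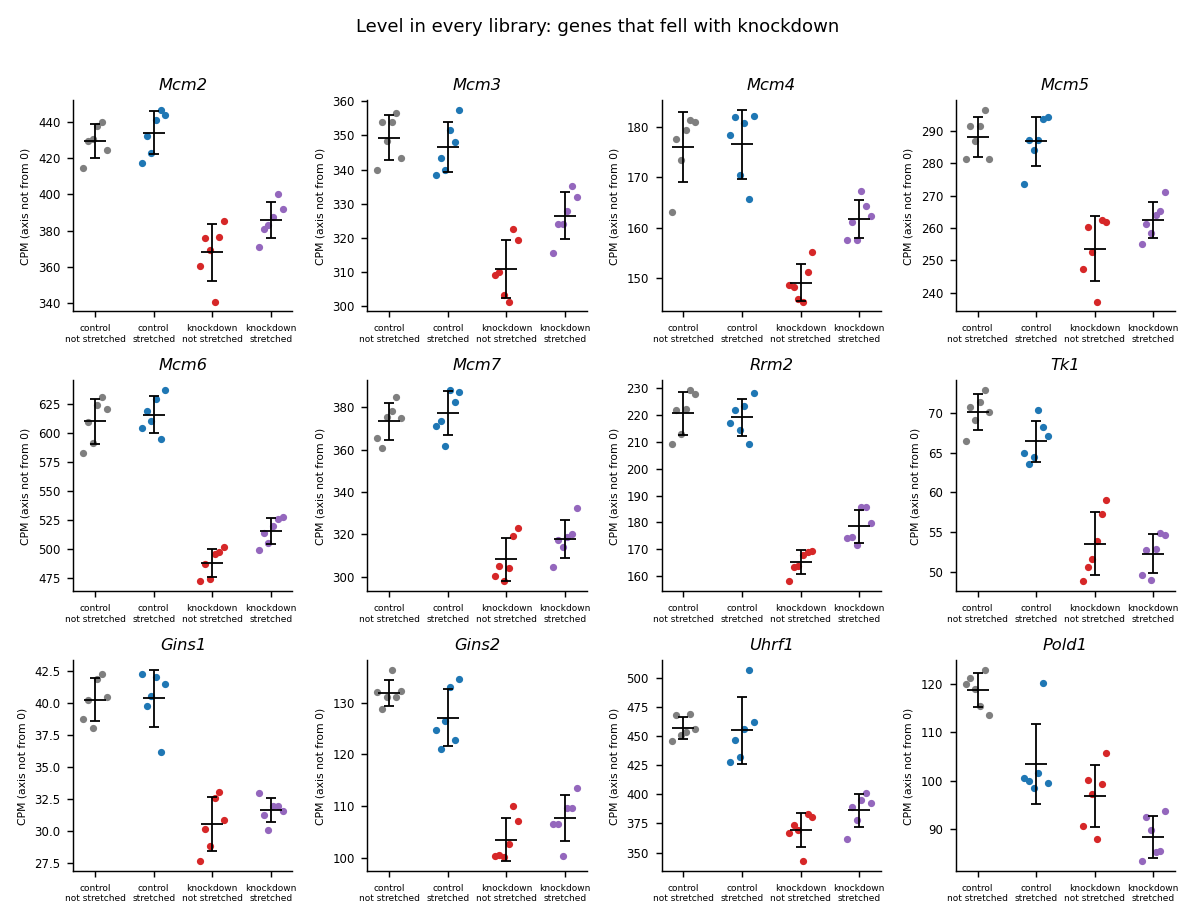
Level in CPM of 12 genes that fell with knockdown, in every library. Each dot is 1 library and bars give the mean ± SD of 6 libraries; the vertical axes do not start at 0. The knockdown libraries lie below the matching control libraries in all panels except Mcm4 with stretch, and for Pold1 the stretched control replicate 5 (120 CPM) lies with the non-stretched controls.

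Among the factors that fire origins some fell and some rose. Of 7 such genes, 3 fell and 2 rose without stretch, and 2 fell and 2 rose with stretch. That was 71.4% and 57.1% of them, against 57.8% and 52.0% of all tested genes. Gins1 and Gins2 are subunits of the 4-part GINS complex that joins Cdc45 and the helicase ring in the active helicase. Gins1 (chromosome 2, 150905400 to 150931280) was at 38.1, 40.4 and 42.3 CPM in non-stretched control and at 27.6, 30.5 and 33.1 CPM in knockdown libraries. With stretch it was at 36.2, 41.0 and 42.3 CPM against 30.1, 31.7 and 33.0 CPM. The groups did not overlap in either setting. Its log2 fold changes were -0.40 (SE 0.043, edgeR adjusted p = 5.95e-09) and -0.36 (SE 0.043, edgeR adjusted p = 6.28e-08).

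Gins2 (chromosome 8, 120578633 to 120589304) fell from 129, 132 and 136 CPM to 100, 102 and 110 CPM without stretch, and from 121, 126 and 134 CPM to 100, 108 and 114 CPM with stretch. On the log2 scale the changes were -0.35 (SE 0.032, edgeR adjusted p = 2.87e-10) and -0.24 (SE 0.032, edgeR adjusted p = 3.73e-07), with no overlap between groups. The other GINS subunits differed: Gins4 fell by 0.15 without stretch and was at -0.08 with stretch, where it did not pass, and Gins3 was at 0.05 and 0.07 and passed in neither. Cdc45 was at -0.00 (95% interval -0.06 to 0.05) without stretch and -0.02 (95% interval -0.08 to 0.04) with stretch.

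Mcm10, a DNA-binding factor that activates the loaded helicase and is not a part of the ring, rose. Its libraries were at 52.7, 56.3 and 57.6 CPM in non-stretched control and 67.2, 67.4 and 68.9 CPM in non-stretched knockdown cells. With stretch they were at 53.5, 55.4 and 58.8 CPM against 66.8, 68.5 and 69.8 CPM. All 12 knockdown libraries lay above all 12 control libraries. By edgeR the log2 fold changes were 0.28 (SE 0.026, edgeR adjusted p = 3.24e-10) and 0.30 (SE 0.026, edgeR adjusted p = 1.14e-10). Mcm10 lies on chromosome 2 at 4989714 to 5012791. Cdc7, the kinase that phosphorylates the helicase ring at firing, rose by 0.12 and 0.15.

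Among polymerases, 4 of 6 genes fell and 1 rose in both comparisons. Over all tested genes 29.7% fell without stretch and 26.9% with stretch. Pold1, the catalytic subunit of polymerase delta, fell by 0.29 (SE 0.045) without stretch and by 0.22 (SE 0.045) with stretch, and Pole, that of polymerase epsilon, by 0.24 and 0.15. Subunits of the polymerase alpha and primase complex were split. Pola1 fell by 0.13 and 0.11 while Pola2 rose by 0.13 and 0.15, and Prim2 fell by 0.15 and 0.08 while Prim1 was at -0.00 and 0.02 and did not pass. The falls of Pola1 in both comparisons and of Prim2 with stretch were lost in some of the other settings.

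Of 9 genes of the sliding clamp, its loaders and Okazaki fragment joining, 3 fell and 1 rose without stretch. With stretch 2 fell and 2 rose. That was 44.4% of them in both, below the 57.8% and 52.0% of all tested genes. Rfc2 and Rfc5 are subunits of the same clamp loader. Rfc2 fell by 0.23 and 0.18, whereas Rfc5 rose by 0.11 and 0.13, and Rfc1, Rfc3 and Rfc4 passed in neither comparison. Pcna, the clamp itself, was at a median of 434 and 405 CPM in non-stretched control and knockdown cells and fell by 0.11. In stretched cells its levels were 455 and 425 CPM, a log2 fold change of -0.09 (SE 0.039, edgeR adjusted p = 0.0571). Lig1, the ligase that seals Okazaki fragments, fell by 0.19 and 0.13, and Fen1, the nuclease that trims them, rose by 0.12 with stretch only.

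Of 4 genes of nucleotide supply, 2 fell and 1 rose in both comparisons. That was 75.0% of them, against 57.8% and 52.0% of all tested genes. The 2 that fell, Rrm2 and Tk1, were among the members that fell most. Rrm2 is the S-phase regulated small subunit of ribonucleotide reductase, the enzyme that makes deoxynucleotides. It lies on chromosome 12 at 24708241 to 24714146. In non-stretched cells it was at 209, 222 and 230 CPM in controls and 158, 166 and 169 CPM in knockdown. In stretched cells it was at 209, 220 and 228 CPM against 172, 177 and 186 CPM. No library overlapped. Its log2 changes were -0.42 (SE 0.029, edgeR adjusted p = 1.16e-12) and -0.30 (SE 0.029, edgeR adjusted p = 1.71e-09). Rrm1, the large subunit of the same enzyme, was at a median of 558 and 537 CPM without stretch and 559 and 529 CPM with stretch, log2 fold changes of -0.05 and -0.06 that did not pass.

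Tk1, the thymidine kinase of the salvage pathway (chromosome 11, 117815526 to 117826092), was at 66.4, 70.4 and 73.0 CPM in non-stretched controls and at 48.8, 52.7 and 59.0 CPM in knockdown. The stretched cells had it at 63.5, 66.1 and 70.4 CPM against 49.01, 52.8 and 54.9 CPM, again without overlap. Knockdown changed it on the log2 scale by -0.39 (SE 0.041, edgeR adjusted p = 4.49e-09) and -0.35 (SE 0.041, edgeR adjusted p = 5.45e-08). Tyms, which makes thymidylate by the other route, from deoxyuridylate, rose by 0.21 and 0.17.

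Of 4 genes of chromatin assembly and histone messages, Uhrf1 and Chaf1a fell in both comparisons, where 29.7% and 26.9% of all tested genes fell. Uhrf1 recognises newly copied, hemimethylated DNA for the maintenance methyltransferase and lies on chromosome 17 at 56303321 to 56323486. It was at 445, 455 and 469 CPM in non-stretched controls and at 343, 372 and 383 CPM in knockdown. With stretch it was at 428, 451 and 507 CPM against 362, 391 and 401 CPM, and no library overlapped. These differences amounted to log2 fold changes of -0.31 (SE 0.035, edgeR adjusted p = 2.57e-08) and -0.24 (SE 0.035, edgeR adjusted p = 2.45e-06). Chaf1a, the large subunit of a histone chaperone, fell by 0.20 and 0.13, whereas Chaf1b, its partner, was at 0.05 and 0.06 and did not pass. Slbp, which binds histone messages, was at 0.08 and 0.06 with wide intervals (-0.04 to 0.21 and -0.07 to 0.18).

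Most of the cyclin E and E2F genes, which bring cells into S phase, rose with knockdown. Of 7 cyclin E and E2F genes, 5 rose and 1 fell without stretch, and 6 rose and 1 fell with stretch. Over all tested genes 28.0% and 25.1% rose. The median log2 fold changes of the 7 genes were 0.24 and 0.25. Ccne1, an activating partner of CDK2 (chromosome 7, 38097984 to 38107534), was at 35.0, 35.9 and 37.4 CPM in non-stretched controls and at 42.7, 47.6 and 49.4 CPM in knockdown. In stretched cells its levels were 37.4, 39.0 and 41.2 CPM against 44.6, 48.4 and 51.3 CPM. All knockdown libraries were above all controls. As log2 fold changes these were 0.38 (SE 0.038, edgeR adjusted p = 2.58e-09) and 0.30 (SE 0.038, edgeR adjusted p = 1.82e-07).

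Ccne2, the related cyclin, had the largest change of the 49 genes and also the widest spread. It was at 57.0, 65.1 and 76.6 CPM in non-stretched controls and at 85.7, 93.6 and 139 CPM in knockdown, where the highest value came from replicate 4, which stands apart on the fourth component. The stretched cells had it at 55.6, 74.1 and 84.7 CPM against 94.2, 99.6 and 107 CPM. The groups did not overlap, and the log2 fold changes were 0.60 (SE 0.103, edgeR adjusted p = 2.36e-05) and 0.45 (SE 0.103, edgeR adjusted p = 6.84e-04).

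E2f3 (chromosome 13, 29906575 to 29986063) was at 35.6, 39.4 and 40.0 CPM in non-stretched controls and 46.9, 49.2 and 54.6 CPM in knockdown. With stretch it was at 36.8, 40.6 and 42.6 CPM against 49.03, 53.3 and 54.3 CPM, without overlap. The log2 fold changes were 0.38 (SE 0.043, edgeR adjusted p = 1.74e-08) and 0.40 (SE 0.043, edgeR adjusted p = 7.18e-09). E2f2, another activator, rose by 0.24 and 0.23. E2f1, the third of the activators, went the other way: it was at 194, 203 and 211 CPM against 150, 167 and 177 CPM without stretch and fell by 0.28, and it fell by 0.19 with stretch.

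E2f7, known as a repressor (chromosome 10, 110745439 to 110787384), was at 117, 119 and 124 CPM in non-stretched controls and at 128, 142 and 146 CPM in knockdown. In stretched cells its levels were 118, 123 and 136 CPM against 140, 149 and 154 CPM, without overlap. On the log2 scale the changes were 0.23 (SE 0.033, edgeR adjusted p = 1.46e-06) and 0.25 (SE 0.033, edgeR adjusted p = 3.29e-07). E2f8, its closest relative, was at -0.02 without stretch and rose by 0.07 with stretch, a call lost when either stretched control replicate 1 or stretched knockdown replicate 5 was left out (edgeR adjusted p = 0.0512 and 0.0524). Dtl, part of the ligase that destroys Cdt1 after licensing, passed in neither comparison. Clspn, the adaptor that links stalled forks to the checkpoint kinase, rose by 0.14 and 0.20.

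**Figure D3:**
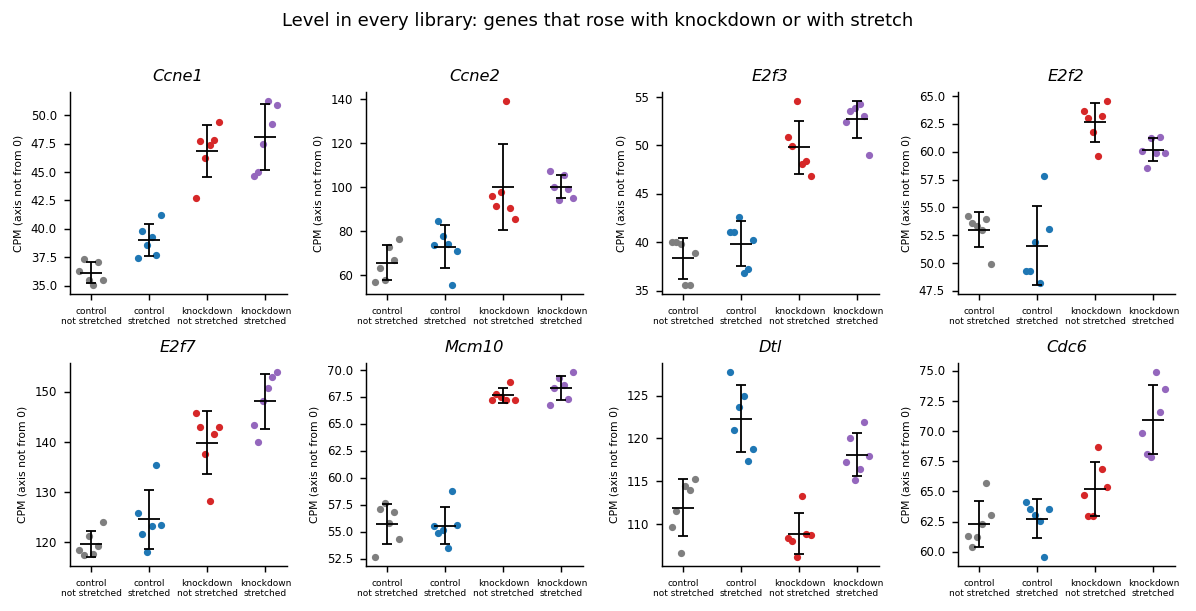
Level in CPM of 8 genes that rose with knockdown or with stretch, in every library. Each dot is 1 library and bars give the mean ± SD of 6 libraries; the vertical axes do not start at 0. For Ccne1, Ccne2, E2f3, E2f2, E2f7 and Mcm10 all knockdown libraries lie above the matching controls, for Dtl the stretched libraries lie above the non-stretched ones of the same cells, and the Ccne2 value of 139 CPM is a single library.

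Whether more of the 49 genes fell or rose with knockdown depended on how libraries were scaled. With upper-quartile scaling 20 of the 49 genes rose and 18 fell without stretch, and 19 rose and 13 fell with stretch; there 63.0% and 61.4% of all calls were rises, against 48.5% and 48.3% with TMM. Under that scaling the falls of Cdt1, Gins4, Pcna and Pola1 without stretch and of Chaf1a, Lig1, Mcm3, Orc6, Pola1, Pole and Prim2 with stretch did not pass. No gene called in either comparison changed sign under any setting tried. The library codes carry a letter, a for replicates 1 to 3 and b for replicates 4 to 6, whose meaning the labels do not give. Within libraries coded a, 12 genes rose and 22 fell without stretch and 13 rose and 23 fell with stretch. Of all tested genes 26.9% rose and 28.0% fell there without stretch, and 24.2% and 25.3% with stretch. Within libraries coded b, 9 rose and 19 fell without stretch, and 14 rose and 14 fell with stretch. The shares of all tested genes there were 16.9% and 21.9% without stretch, and 15.4% and 19.1% with stretch.

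The letter itself moved with these genes. The summed level of the 49 genes was 7572 CPM on average in libraries coded a and 7818 CPM in those coded b among non-stretched controls. The matching averages were 7625 and 7774 CPM in stretched controls, 6989 and 7207 CPM in non-stretched knockdown, and 7172 and 7442 CPM in stretched knockdown cells. The difference between letters was thus smaller than that between knockdown and control cells. In an edgeR fit with the letter as a term, chosen after the values were seen, 6 of the 49 genes were higher in b (Tk1, Rfc5, Mcm7, Chaf1b, Rfc2 and Gins2) and E2f3 was lower. Over all tested genes 1.03% were higher and 0.854% lower. The estimate was above 0 for 47 of the 49 genes, and for 44 without stretched control replicate 5. The share of all tested genes above 0 was not counted. With all libraries the median estimate was 0.045 for the 49 genes and 0.004 over all tested genes. Without stretched control replicate 5, 17 of the 49 were higher in b and 1 lower, with 760 and 400 of 14466 tested genes overall. Each group holds 3 libraries of each letter.

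**Figure D4:**
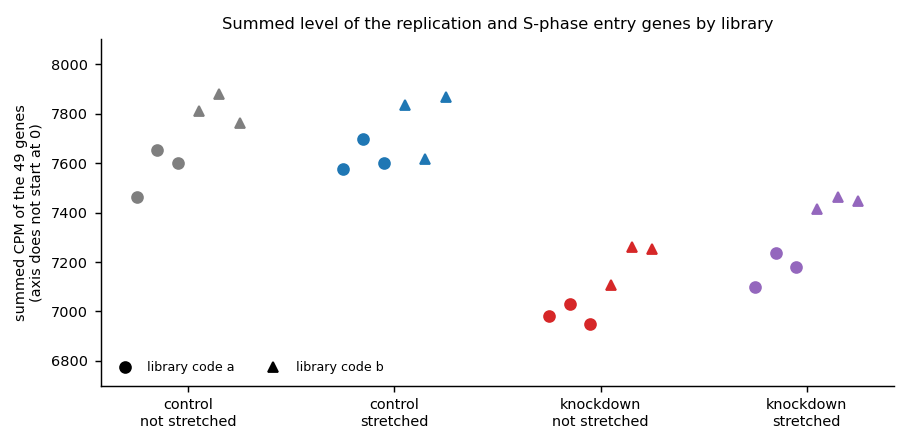
Summed level of the 49 genes in each library, in CPM, by group; circles are libraries coded a and triangles libraries coded b. The vertical axis does not start at 0. Knockdown libraries lie between 6951 and 7461 CPM and control libraries between 7464 and 7879 CPM.

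Stretch for 60 min moved few of these genes. In control cells 1 of the 49 rose (Dtl) and 1 fell (Pold1), where 2.55% of all tested genes rose and 3.39% fell. In knockdown cells 6 rose (Dtl, Cdc6, Mcm4, Rrm2, E2f8 and Clspn) and none fell, against 5.32% and 3.61% of all genes. At an unadjusted p under 0.05 there were 3 members in control and 13 in knockdown cells, beside 21.5% and 22.3% of all tested genes. The median log2 fold change of the 49 genes was 0.01 in control and 0.04 in knockdown cells, against -0.01 and -0.01 over all genes. Of the 12 atrial markers 1 rose in control and 3 in knockdown cells, where their sum was 1184 to 1290 CPM without and 1319 to 1355 CPM with stretch. The summed macrophage and leukocyte markers went from a mean of 1.84 to 2.96 CPM in control and from 2.62 to 3.63 CPM in knockdown cells, with 2 and 1 of 3 tested markers rising. The part of these markers in the stretch result was not tested.

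Dtl was the only member that rose in both. It lies on chromosome 1 at 191537356 to 191575544. In control cells it was at 107, 113 and 115 CPM without stretch and 117, 122 and 128 CPM with stretch, a log2 fold change of 0.13 (SE 0.026, edgeR adjusted p = 0.00339). In knockdown cells it was at 106, 109 and 113 CPM against 115, 118 and 122 CPM, a log2 fold change of 0.12 (SE 0.026, edgeR adjusted p = 0.00393). The groups did not overlap in either kind of cell. Within libraries coded b alone, the rise in control cells was 0.07 (edgeR adjusted p = 0.517).

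Pold1 (chromosome 7, 44532746 to 44548849) fell with stretch in control cells. It was at 114, 119 and 123 CPM without stretch, and at 98.5, 100 and 120 CPM with stretch. The groups overlapped through stretched control replicate 5 alone, since the other 5 stretched libraries were at 98.5 to 102 CPM. The log2 fold change was -0.20 (SE 0.045, edgeR adjusted p = 0.00878), and -0.25 (SE 0.033, edgeR adjusted p = 4.76e-06) without that library and non-stretched knockdown replicate 4. The call was lost when only the groups compared were fitted (-0.19, edgeR adjusted p = 0.0551) and within libraries coded b (-0.13, edgeR adjusted p = 0.537). In knockdown cells Pold1 was at a median of 98.3 CPM without and 87.6 CPM with stretch, a log2 fold change of -0.13 (SE 0.045, edgeR adjusted p = 0.0681) that did not pass. Ccne1, next by p in control cells, was at a log2 fold change of 0.11 (SE 0.039, edgeR adjusted p = 0.0856), with levels of 35.0 to 37.4 CPM without and 37.4 to 41.2 CPM with stretch.

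The other members that rose with stretch in knockdown cells belonged to several roles. Mcm4, a helicase subunit on chromosome 16 (15623897 to 15637400), was at 145, 148 and 155 CPM without and 158, 162 and 167 CPM with stretch, without overlap, and rose by 0.12 (SE 0.029, edgeR adjusted p = 0.0110). Rrm2 rose from 158, 166 and 169 CPM to 172, 177 and 186 CPM, without overlap, by 0.11 (SE 0.029, edgeR adjusted p = 0.0141). Cdc6 (chromosome 11, 98907801 to 98923940) was at 62.9, 65.0 and 68.7 CPM against 67.9, 70.7 and 74.9 CPM, with overlap, and rose by 0.12 (SE 0.030, edgeR adjusted p = 0.0103).

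E2f8 (chromosome 7, 48866429 to 48881596) went from 137, 143 and 152 CPM to 146, 155 and 159 CPM in knockdown cells, and rose by 0.09 (SE 0.025, edgeR adjusted p = 0.0182). Clspn (chromosome 4, 126556935 to 126593903) went from 93.6, 101 and 103 CPM to 102, 108 and 113 CPM, and rose by 0.11 (SE 0.030, edgeR adjusted p = 0.0183). Both pairs of groups overlapped. The rises of E2f8 and Clspn did not pass with upper-quartile scaling, under which 4 of the 49 genes rose and 49.4% of all calls were rises, against 59.6% with TMM. In control cells the same scaling moved the share of rises from 42.9% to 54.3%, and Dtl and Pold1 stayed the 2 calls.

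**Figure D5:**
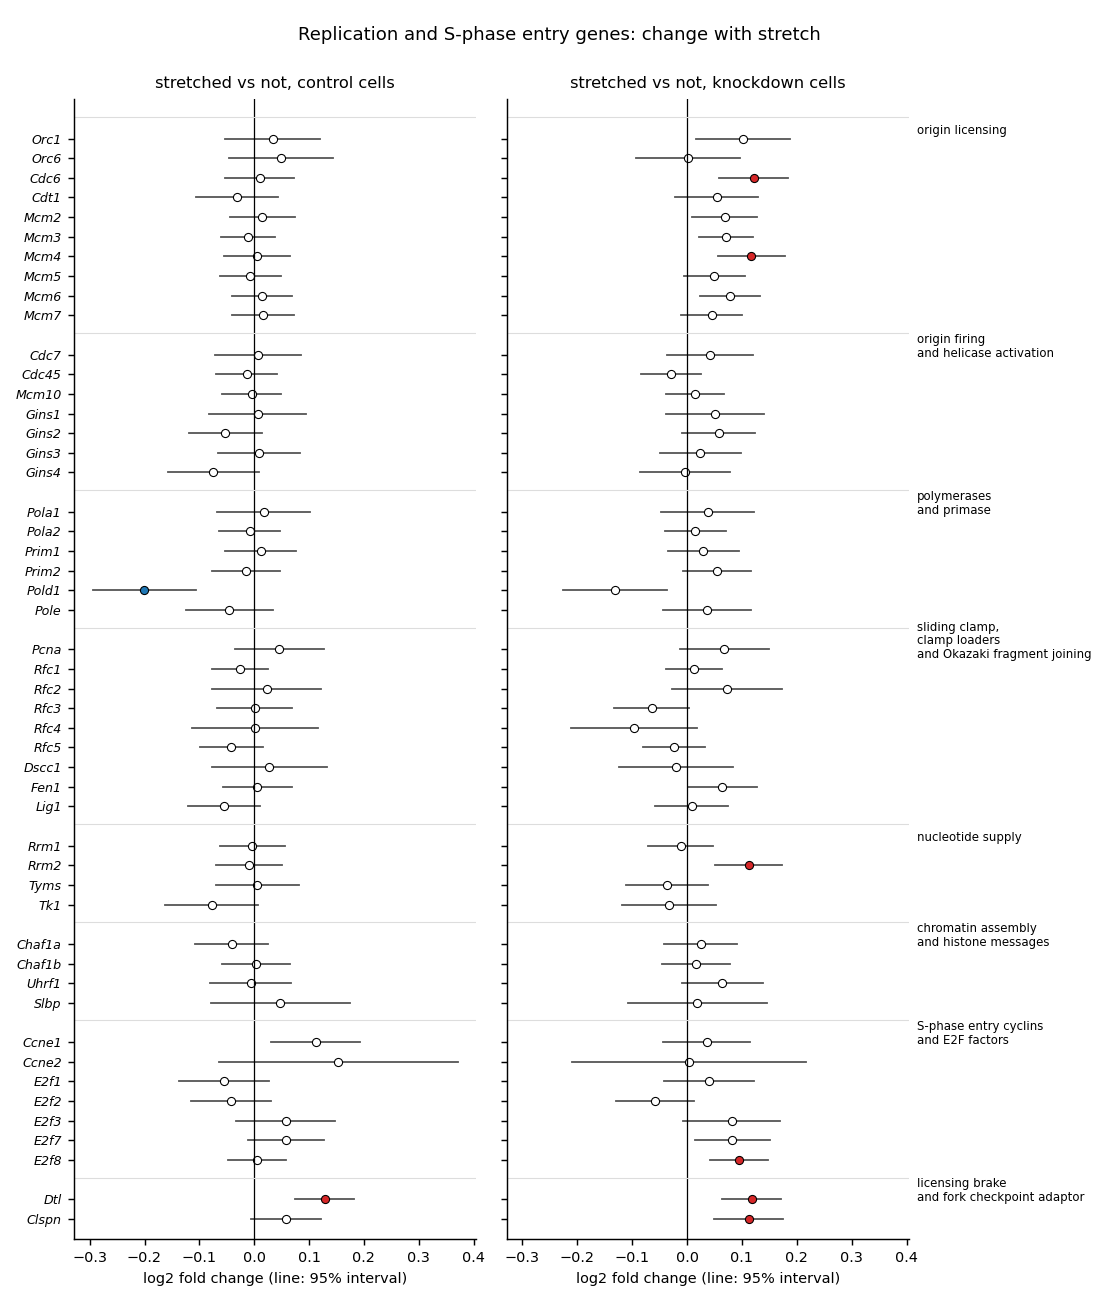
Log2 fold change of stretched over non-stretched cells for each of the 49 genes, ordered by role, in control (left) and knockdown cells (right). Points are edgeR estimates, lines their 95% intervals, and filled points passed the test at an adjusted p under 0.05 (red higher, blue lower). Only Dtl and Pold1 are filled on the left, and 6 genes, all above 0, on the right.

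The count for control cells depended on the libraries that stood apart and on the code letter, in fits added after the data were seen. Without stretched control replicate 5 and non-stretched knockdown replicate 4, 5 members rose and 6 fell in control cells, where 7.27% and 13.0% of all tested genes did. The additional rises were Ccne1, Ccne2, Orc6 and Slbp, and the additional falls E2f1, E2f2, Lig1, Pole and Chaf1a, each by less than 0.21 on the log2 scale. Within libraries coded a alone, 6 rose and 8 fell, where 10.1% and 13.7% of all genes did. Within those coded b, which include stretched control replicate 5, none passed, and over all genes 0.194% rose and 0.0277% fell. In knockdown cells 8 rose and 1 fell (Pold1) without those 2 libraries, against 7.64% and 7.70% of all genes. There 3 rose within libraries coded a, against 3.68% of all genes, and none within those coded b, against 0.844%. The lost calls within a letter come with 3 libraries per group.

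For the members that did not pass, the intervals bound what stretch could have done on this scale. In control cells the 95% intervals of the 47 genes lay between -0.16 and 0.37 on the log2 scale, and between -0.16 and 0.19 without Ccne2. In knockdown cells those of the 43 genes lay between -0.23 and 0.22. Mcm6 and Mcm3 were next by p in knockdown cells, at 0.08 and 0.07 (edgeR adjusted p = 0.0581 and 0.0624).

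The interaction asked whether stretch acted differently in knockdown and control cells. None of the 49 genes passed, and 0.0208% of all tested genes did. DESeq2 and limma-voom also called none of the 49, and 6 had an unadjusted p under 0.05, as did 9.40% of all tested genes. The smallest p values were those of Rrm2, Mcm4 and Cdc6. Rrm2 changed with stretch by -0.01 in control and 0.11 in knockdown cells, a difference of 0.12 (SE 0.041, edgeR adjusted p = 0.304). Mcm4 changed by 0.01 and 0.12, a difference of 0.11 (SE 0.041, edgeR adjusted p = 0.371), and Cdc6 by 0.01 and 0.12, a difference of 0.11 (SE 0.043, edgeR adjusted p = 0.391). So the larger number of calls in knockdown cells is not a tested difference between the cells. The 95% intervals of the difference reached from -0.26 to 0.21 over the members other than Ccne2, whose interval was -0.45 to 0.15. Within libraries coded a alone, E2f1 (0.18, edgeR adjusted p = 0.0213) and Ccne2 (-0.32, edgeR adjusted p = 0.0404) passed. In that fit 2.53% of all tested genes passed above 0 and 1.36% below 0. Within libraries coded b none of the 49 passed, and no gene did over all tested genes.

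Other genes of the same pathways were counted from 4 lists. Of 45 further replication factors, 16 fell and 11 rose with knockdown without stretch, and 16 fell and 10 rose with stretch. That was 60.0% and 57.8% of them, near the 57.8% and 52.0% of all tested genes. The median log2 fold changes of these factors were -0.04 in both. Pold4, a small subunit of polymerase delta, fell by 0.39 (SE 0.041) and 0.40 (SE 0.041), next to the falls of Pold1. Dut, which clears dUTP and makes the substrate of Tyms, fell by 0.37 without stretch, from 115 ± 5.19 to 89.0 ± 6.40 CPM (SD, n = 6 each), while Shmt1, a one-carbon enzyme, rose by 0.21. With stretch Asf1b, a histone chaperone, fell by 0.23 and Pold2, another delta subunit, by 0.21.

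Of 32 genes of the cyclin D, CDK and RB axis, which lies upstream of S phase, 10 rose and 10 fell without stretch, and 9 rose and 8 fell with stretch. Over all tested genes 28.0% rose and 29.7% fell without stretch, and 25.1% and 26.9% with stretch, so that these counts lie near the background. Cdkn1a, the CDK inhibitor p21, was at 95.8 ± 4.16 CPM in non-stretched control and 170 ± 4.86 CPM in knockdown cells, and at 105 ± 3.99 and 174 ± 5.56 CPM with stretch (SD, n = 6 each). It rose by 0.82 (SE 0.031, edgeR adjusted p = 3.12e-18) and 0.72 (SE 0.031, edgeR adjusted p = 7e-17). Cdkn1c, the CDK inhibitor p57, fell by 1.28 without stretch, from 40.7 ± 2.40 to 16.8 ± 0.945 CPM, and was at 39.2 ± 2.89 and 18.4 ± 1.47 CPM with stretch, and Cdkn2c fell by 0.59 without stretch, from 332 ± 11.2 to 221 ± 7.74 CPM (SD, n = 6 each). Ccnd1, cyclin D1, fell by 0.88 with stretch, from 9.01 ± 0.426 to 4.90 ± 0.463 CPM (SD, n = 6 each).

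Of 27 genes of the S-phase checkpoint and fork repair, 8 rose and 8 fell without stretch, and 7 rose and 8 fell with stretch. That was 59.3% and 55.6% of them, near the 57.8% and 52.0% of all tested genes. Wee1, the kinase that restrains CDKs, fell by 0.58 and 0.49, and Cdc25b, a phosphatase that acts against it, fell by 0.41 and 0.32. Bard1, the partner of Brca1, fell by 0.34 without stretch, and Rad51ap1, a recombination factor, rose by 0.31 with stretch. Of 25 mitotic genes, 20 fell and 1 rose without stretch, and 18 fell and 1 rose with stretch, with medians of -0.22 and -0.15. Over all tested genes 29.7% and 26.9% fell. Kif20a, a mitotic kinesin, fell by 0.28 and 0.25, Tpx2, a spindle factor, by 0.27 and 0.24, Aurkb by 0.23 without stretch and Aurka by 0.21 with stretch. The mitotic genes, which are not replication genes, thus moved down beside Mcm2 to Mcm7, and their part in the replication result was not tested.

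The same lists were counted for stretch, where 2.55% of all genes rose and 3.39% fell in control cells and 5.32% and 3.61% in knockdown cells. Of the 45 further replication factors, 3 fell in control cells (Cdca7, Chtf8 and Pold4), and 6 fell and 1 rose in knockdown cells. Cdca7, a chromatin remodelling partner, fell by 0.17 and 0.19, Chtf8, a subunit of the same alternative clamp loader as Dscc1, by 0.10 and 0.11, and Atad5, an unloader of the clamp, rose by 0.18 in knockdown cells. Myc, a driver of growth and S-phase entry, rose from 28.9 ± 4.75 to 36.1 ± 3.13 CPM in control cells and from 27.2 ± 1.80 to 37.1 ± 3.61 CPM in knockdown cells (SD, n = 6 each). Its log2 fold changes were 0.32 (SE 0.085, edgeR adjusted p = 0.0253) and 0.45 (SE 0.085, edgeR adjusted p = 0.00106). In control cells Cdkn1a also rose, by 0.14, and Ccnd3, cyclin D3, fell by 0.10. In knockdown cells Mybl2, a partner of E2F-driven transcription, fell by 0.11 and Rad1, a checkpoint clamp subunit, by 0.21. Bard1 and Cdc25b fell in control cells by 0.14 and 0.13, and of the 25 mitotic genes 5 fell in control cells, led by Plk1 (0.18), Dlgap5 (0.14) and Cdc20 (0.12), and none passed in knockdown cells; the interaction called no gene of these lists.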

How the data were processed

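Estimated counts per protein-coding gene (20351 genes, 24 libraries) were used as the authors deposited them. Tools in the submitters' processing notes are R 3.4.4, DESeq2 1.18.1 and kallisto 0.44.0, with the build GRCm38.p6; the annotation release is not given in the sources used here. The authors also deposited a normalized signal for these genes, which served only as an alternative scaling. Per the labels' protocols the library kit was stranded; use of strand in counting is not recorded.

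Estimated counts were rounded and tested with edgeR 4.0.16 (R 4.3.3): TMM scaling, filterByExpr (minimum count 10, minimum total 15; 14411 genes), robust quasi-likelihood fit with 1 coefficient per group over 24 libraries (20 residual degrees of freedom), Benjamini-Hochberg adjustment over all tested genes, threshold 0.05. Alternatives used DESeq2 1.42.0, limma-voom (limma 3.58.1), upper-quartile scaling, the authors' scaling, no filter, a minimum count of 50, or only the groups compared. Others added a replicate or code letter block, left out single libraries or those that stand apart, or used a single code letter. Calls were also counted at a threshold of 0.01. Gene positions are from GENCODE vM21. Scripts were tested on simulated counts. Full values were given to the 10 genes with the smallest adjusted p in each comparison, or to the 3 with the smallest p where fewer than 3 passed; other genes, and the 3 called genes with the smallest adjusted p of each list, are given in short. Ccne2 and others outside that rule were chosen after their values were seen. The genes and lists were chosen with earlier results of these data known. No principal component, letter or replicate number was used as a covariate in the reported fit.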

Additional observations from a re-analysis of the deposited data

Results flagged for a closer look

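Each group of 6 libraries was checked for a single library whose gap to the nearest other exceeded Dixon's 95% critical share of the range for 6 values. Of 204 sets of 6 values checked, from the 49 genes, Trim63 and the summed level of the 49, 23 were picked out, and chance alone picks out about 1 in 20.

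In stretched control replicate 5, which stands apart on the second principal component, 10 genes were picked out. Slbp was at 161 CPM against 202 to 210 CPM in the other 5 libraries, Pcna at 395 CPM against 451 to 476 CPM, and Rrm1 at 507 CPM against 555 to 568 CPM. Pola1 was at 192 CPM against 218 to 232 CPM, Orc6 at 68.6 CPM against 81.4 to 85.9 CPM, Rfc4 at 42.5 CPM against 51.8 to 54.6 CPM, and Cdc6 at 59.6 CPM against 62.5 to 64.1 CPM. In the same library Pold1 was high at 120 CPM against 98.5 to 102 CPM, as were Pola2 at 198 CPM against 176 to 182 CPM and Chaf1a at 155 CPM against 138 to 143 CPM.

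In non-stretched knockdown replicate 4, which stands apart on the fourth component, Ccne2 was at 139 CPM against 85.7 to 97.8 CPM, Slbp at 248 CPM against 192 to 196 CPM, and Orc6 at 86.7 CPM against 71.0 to 76.2 CPM. Rfc4 was at 62.05 CPM against 47.4 to 52.3 CPM, Dtl at 113 CPM against 106 to 109 CPM, and Pole was low at 124 CPM against 142 to 152 CPM.

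The other 7 lay in 7 further libraries. Mcm10 was at 68.9 CPM against 67.2 to 67.7 CPM in non-stretched knockdown replicate 5, and Dscc1 at 22.6 CPM against 18.5 to 19.9 CPM in stretched control replicate 4. In stretched knockdown cells E2f3 was at 49.03 CPM in replicate 6 against 52.4 to 54.3 CPM, still above all control libraries, and Orc1 at 24.3 CPM in replicate 3 against 26.8 to 27.9 CPM. In non-stretched controls E2f8 was at 148 CPM in replicate 5 against 145 to 146 CPM, and E2f2 at 49.9 CPM in replicate 6 against 52.9 to 54.2 CPM. In stretched knockdown replicate 1, Trim63 was at 83.5 CPM against 60.0 to 68.0 CPM, far below all control libraries.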

How the results depend on the processing

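The number of the 49 genes called with knockdown stayed within 1.5 times the reported 33 without stretch and 35 with stretch in every setting tried, and no call changed sign. Over the settings that keep the 0.05 threshold, other than the fits within 1 letter, 29 of the 33 and 27 of the 35 calls were kept; those lost in some were Cdt1, Gins4, Pcna and Pola1 without stretch, and Chaf1a, E2f8, Lig1, Mcm3, Orc6, Pola1, Pole and Prim2 with stretch. At an adjusted p under 0.01, 11 rose and 20 fell without stretch, and 13 and 17 with stretch. Calls over all tested genes were not counted at that threshold. Leaving out single libraries gave 33 to 37 and 32 to 41 calls. Calls over all tested genes moved too. Without stretched control replicate 5 there were 4356 rises and 4532 falls without stretch, against 4040 and 4285 reported. With stretch there were 3775 and 4242, against 3619 and 3875. For stretch in control cells the reported 2 calls became 1 when only the 2 groups were fitted (Pold1 adjusted p = 0.0551 by edgeR), 11 without the 2 libraries that stand apart, 14 within libraries coded a and 0 within those coded b. For stretch in knockdown cells the reported 6 became 3 within libraries coded a, 0 within those coded b and 1 at an adjusted p under 0.01; leaving out single libraries gave 4 to 9. The interaction went from 0 to 2 within libraries coded a, where 2.53% of all tested genes passed above 0 and 1.36% below 0. Fits within a letter hold fewer libraries; for the other changes the cause was not tested. Of 36 pairs of same-numbered libraries, 3 had deviations from their group means correlated above 0.1 (range -0.0638 to 0.147). Differently numbered libraries were not set beside them, so this does not decide whether replicate numbers pair the samples. A fit with a replicate block called 34 and 36 genes with knockdown, 2 and 8 with stretch and 0 for the interaction. Each of the 49 genes had at least 453 counts in every library.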
